A study of Mus musculus with 6 samples.

Results

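The miRNAs examined here are the muscle miRNAs of the miR-1, miR-133 and miR-208 families, miR-1, miR-133a, miR-133b, miR-206, miR-208, miR-208b and miR-499, in the aorta of atherosclerosis-prone mice. Of these 7 names, chosen as a functional group and matched to assay names without star strands, 6 were among the 596 mouse miRNA assays of the deposited table, and miR-206 was not analysed here. The aortas came from 3 EC-Dicerflox mice (VE-Cadherin-CreERT2, Dicer1flox/flox, Apoe-/-) and 3 EC-DicerWT mice (VE-Cadherin-CreERT2, Dicer1WT/WT, Apoe-/-). All 6 mice, controls included, carried the tamoxifen (TMX)-inducible Cre and lacked apolipoprotein E. TMX was injected daily for 5 days at 2 mg for every 20 g of weight, and a high-fat diet (HFD) followed for 4 weeks, begun at an age of 6 to 8 weeks. The labels give the mice as male and the study's methods give female mice. The Cre is driven by an endothelial promoter, so that Dicer, the RNAse that cuts miRNA precursors into mature miRNAs, was targeted in endothelial cells (ECs) and not in muscle cells. Dicer1 mRNA is not measured by these assays.

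The muscle miRNAs are made mainly in the heart and in skeletal muscle. MiR-1 and miR-133a are transcribed together from shared primary transcripts, act in muscle development, and are also found in vascular smooth muscle, where miR-133a is known to keep smooth muscle cells from proliferating. MiR-206 and miR-133b form a second such pair, typical of skeletal muscle. MiR-208 (now miR-208a), miR-208b and miR-499 lie in introns of myosin heavy chain genes and are known for setting the type of myosin in heart and slow muscle fibres, so that their presence marks cardiac or slow striated muscle rather than the smooth muscle of the aortic wall.

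The sequences below are shown to set a member found in every aorta, miR-133b, beside the related members at or near the detection limit. They are RefSeq mature sequences (GRCm38.p6) for 4 of the 6 assays, written 5′ to 3′ with the seed (bases 2 to 8), the part that pairs with target mRNAs, in capitals. The table names no strand for these assays, and the strand shown is the one for which the older name without a strand stands.
miR-133b: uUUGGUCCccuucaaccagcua
miR-208: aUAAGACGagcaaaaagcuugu
miR-208b: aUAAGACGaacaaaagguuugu
miR-499: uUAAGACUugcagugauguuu
MiR-208 and miR-208b shared all 7 seed bases and 19 of 22 bases in all, and miR-499 shared 6 of the 7 seed bases with both. MiR-133b has a different seed. In RefSeq, mature miR-133b lies at chr1:20682834-20682855 on the plus strand, within Lincmd1, a long noncoding RNA gene that also holds Mir206. Mature miR-208 lies at chr14:54949072-54949093 and miR-208b at chr14:54975710-54975731, both on the minus strand, within Myh6 and Myh7, which encode the alpha and beta cardiac myosin heavy chains. Mature miR-499 lies at chr2:155622893-155622913 on the plus strand, within Myh7b, a further myosin gene.

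The measure is the CT, the PCR cycle at which the fluorescence crosses a threshold. A higher CT means less RNA, and at full efficiency each further cycle stands for a halving. A CT of 40 is entered for any well that gave no signal. Assays differ in efficiency, so that the order of CT values between miRNAs is only roughly an order of amounts. EC-Dicerflox replicate 3 stood apart: its control RNAs (U6 and snoRNA135) had a mean CT of 20.2, against 18.7 to 19.6 in the other samples, and 375 of its miRNA assays were under 40, against 402 to 415. Of the wells of the plant assay ath-miR159a, a negative control, 1 of 12 was under 40, at 39.6.

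The muscle miRNAs differed in the number of aortas in which they gave a signal. MiR-133a, miR-133b and miR-1 had a signal in all 6 aortas, miR-208 in 3 aortas, and miR-208b and miR-499 in none, so that 21 of 36 wells had a signal. All of these 21 wells also had a CT under 35.

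MiR-133a was the most readily detected member. Its CT was 19.0, 18.4 and 20.2 in EC-Dicerflox replicates 1, 2 and 3 and 18.9, 18.9 and 19.8 in EC-DicerWT replicates 1, 2 and 3. Only 15 of the 596 miRNA assays (2.52%) had a lower median CT. The smooth muscle miRNA miR-143 had CT values from 16.9 to 18.1 and the endothelial miR-126-3p from 17.1 to 19.1 in the same aortas.

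MiR-133b, which is nearly identical in sequence to miR-133a, came next. Its CT was 22.8, 22.2 and 23.4 in EC-Dicerflox and 22.6, 22.8 and 23.4 in EC-DicerWT mice, and 11.9% of the assays had a lower median CT. The CT of miR-133b was above that of miR-133a in 6 of 6 samples, by 3.14 to 3.92 cycles.

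MiR-1 had a CT of 23.7, 22.9 and 24.5 in EC-Dicerflox and 23.2, 24.8 and 23.9 in EC-DicerWT mice, and 17.1% of the assays had a lower median CT. The highest CT of miR-1 was in EC-DicerWT replicate 2, in which that of miR-133a was 18.9. MiR-1 was above miR-133b in CT in 6 of 6 samples, but by as little as 0.491 cycles. The order miR-133a, miR-133b, miR-1 was thus the same in every aorta.

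Of the miRNAs within myosin genes, miR-208 alone gave a signal. Its CT was 32.9, 34.5 and 40 in EC-Dicerflox and 40, 33.0 and 40 in EC-DicerWT mice, so that it was seen in 2 of 3 and 1 of 3 samples. Where it was seen, its CT was at least 13.9 cycles above that of miR-133a in the same aorta. The samples with a signal for miR-208 included both the one with the most miR-1 relative to the control RNAs, EC-Dicerflox replicate 2, and the one with the least, EC-DicerWT replicate 2. The samples without it were EC-Dicerflox replicate 3 and EC-DicerWT replicates 1 and 3, of which the first and the last had the highest control CT values.

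MiR-208b, from the gene of the slow cardiac myosin, and miR-499 were listed at 40 in all 6 samples. These assays gave no signal in any aorta, which puts their CT at least 19.8 cycles above that of miR-133a in the sample where the gap is smallest. They belonged to the 22.7% of the 596 miRNA assays without a signal in any sample. No order between miR-208b and miR-499 can be given, nor one that includes miR-208 in the 3 samples where all were at 40.

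**Figure D1:**
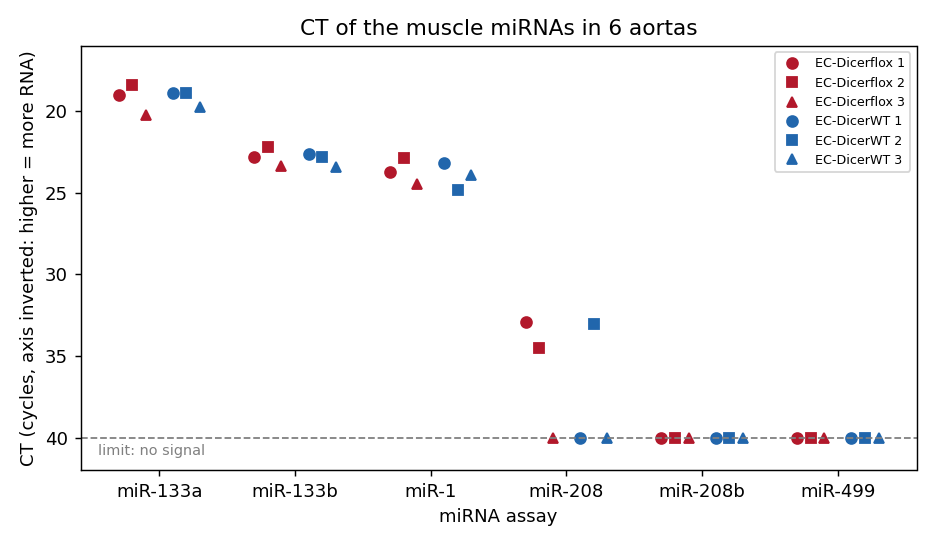
CT of the 6 muscle miRNA assays (x axis) in each aorta, on an inverted y axis in cycles, with EC-Dicerflox samples in red, EC-DicerWT samples in blue, and marker shape giving the replicate number. The dashed line is the limit of 40, at which wells without a signal are listed. MiR-133a, miR-133b and miR-1 lie between 18.4 and 24.8 in all 6 samples, miR-208 has a signal in 3, and miR-208b and miR-499 lie on the limit in all.

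The passenger strand and the antisense transcript measured from the same loci had no signal in most samples. MiR-133a*, the passenger strand of the miR-133a precursor, had a signal in 1 of 6 samples, at a CT of 39.5 in EC-Dicerflox replicate 2. That is about the level of the plant negative control, which reached 39.6. MiR-1-2-AS, from the strand opposite a miR-1 precursor, had CT values of 33.6 in EC-Dicerflox replicate 1 and 37.1 in EC-DicerWT replicate 3, and was at 40 in the other 4.

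Markers of other cells were present in the aortas. The smooth muscle miRNAs miR-143 and miR-145 and the endothelial miRNAs miR-126-3p and miR-126-5p were detected in 6 of 6 samples, and so were all 4 leukocyte miRNAs, the erythroid miR-451 and all 4 miRNAs known from brown fat, among which miR-193b had CT values of 17.6 to 19.2. Brown fat precursors and myoblasts are known to share a lineage, and miR-133 is expressed in both. The liver miRNA miR-122 ranged over 6.01 cycles between the 6 aortas relative to the control RNAs, and the neuronal miR-124 was at 40 in 3 samples and had a CT of 25.9 in EC-DicerWT replicate 3, while the neuronal miR-9 had a signal in all 6 samples (CT of 24.0 to 25.7). Between the groups of mice, an adjusted limma p-value under 0.05 was reached by 0 of 2 endothelial, 0 of 4 leukocyte, 0 of 4 brown fat and 0 of 2 neuronal miRNAs, and neither by miR-451 nor by miR-122, as by 0% of all miRNAs tested. An unadjusted p-value under 0.05 was seen for 1 of these 14 miRNAs, against 3.04% of all miRNAs tested. It was the leukocyte miR-142-5p (limma p-value of 0.00989, adjusted 0.923, log2 fold change -0.996). Of the 4 leukocyte miRNAs, 3 had an estimate below 0 and 1 above 0, with a median log2 fold change of -0.405. Minus delta CT did not overlap between the groups for 5 of the 14, against 10.4% of all miRNAs tested. These were miR-142-5p, lower in all EC-Dicerflox samples, and miR-126-3p, miR-126-5p, miR-455 and miR-9, higher in all of them, with log2 fold changes of 0.41, 0.85, 0.52 and 0.49. The other neuronal miRNA, miR-124, had an estimate below 0, with 3 of its 6 wells at the limit. Their part in the values of the muscle miRNAs was not tested. In whole-aorta RNA, the parts of smooth muscle, attached striated muscle and periaortic fat in the level of miR-1 and miR-133 cannot be told apart, and neither can fewer cells of a type and less RNA per cell.

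To compare samples, the mean CT of U6 and snoRNA135 (4 wells) was subtracted to give the delta CT. MiR-133a was among the steadiest miRNAs on this scale. Its delta CT was 0.107, -0.304 and -0.00975 in EC-Dicerflox and 0.0705, -0.0458 and 0.162 in EC-DicerWT replicates 1, 2 and 3. All values lay within 0.466 cycles, while its raw CT ranged over 1.82 cycles and that of the control RNAs over 1.52. Its SD over the 6 samples, 0.166 cycles, was larger than that of only 2.29% of the 350 miRNAs with a signal in all samples, whose median SD was 0.481. With U6 alone as the control RNA, this SD was 0.409, larger than that of 19.4% of the miRNAs.

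MiR-133b had an SD of 0.303 cycles over the 6 samples, larger than that of 25.1% of the miRNAs. Its delta CT was 3.92, 3.50 and 3.13 in EC-Dicerflox and 3.80, 3.87 and 3.81 in EC-DicerWT replicates 1, 2 and 3. The EC-DicerWT values lay within the range of the EC-Dicerflox values, of which EC-Dicerflox replicate 3 was the lowest.

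MiR-1 had an SD of 0.659 cycles, larger than that of 60.6% of the miRNAs. Its delta CT was 4.82, 4.16 and 4.26 in EC-Dicerflox and 4.35, 5.89 and 4.30 in EC-DicerWT replicates 1, 2 and 3. EC-DicerWT replicate 2 thus had the least miR-1 of all samples relative to the control RNAs, and the other 5 samples lay between 4.16 and 4.82. The groups overlapped.

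**Figure D2:**
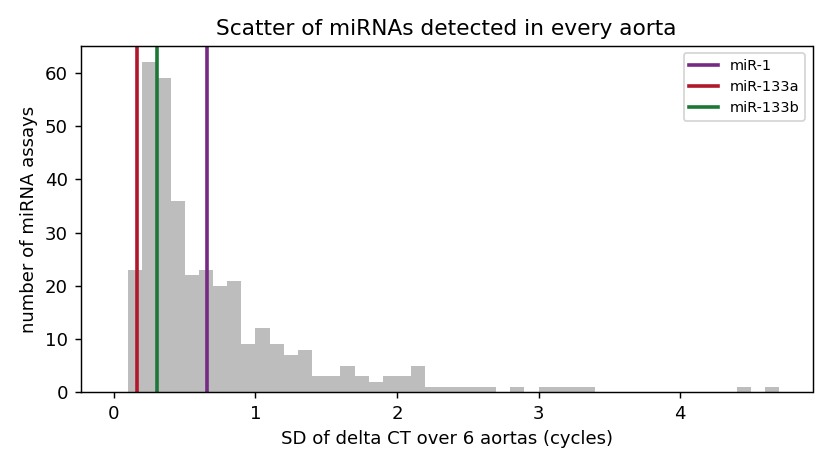
Histogram of the SD of delta CT over the 6 aortas (x axis, cycles) for the 350 miRNA assays with a signal in every sample (y axis, number of assays), with vertical lines at miR-133a (0.166), miR-133b (0.303) and miR-1 (0.659). On the scale of U6 and snoRNA135, miR-133a lies at the steady end and miR-1 above the median of 0.481.

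Endothelial Dicer deletion was then compared with the wild type for the muscle miRNAs. Of the 4 members that could be tested, 0 had an adjusted limma p-value under 0.05, which was also the case for 0 of all 461 miRNAs tested (0%). An unadjusted p-value under 0.05 was seen for 0 of these 4 and for 14 of the 461 (3.04%), of which 9 were lower and 5 were higher in EC-Dicerflox mice. The values of both groups overlapped in all 4 members, while they did not overlap for 10.4% of the 461. The miRNAs tested are those with a signal in at least 1 sample, and miR-208b and miR-499 were left out because they had none.

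The log2 fold change, minus the difference in mean delta CT, was 0.43 for miR-1 in EC-Dicerflox relative to EC-DicerWT mice (standard error 0.53, 95% interval -0.91 to 1.78, adjusted limma p-value of 0.923). The mean delta CT of miR-1 was 4.41 ± 0.353 (SD, n = 3) in EC-Dicerflox and 4.85 ± 0.905 (SD, n = 3) in EC-DicerWT mice. This estimate rested on EC-DicerWT replicate 2, without which the log2 fold change was -0.089. The exact permutation test gave a two-sided p of 0.5 for miR-1, where 0.1 is the smallest p that 3 samples against 3 allow.

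MiR-133a had the smallest estimate and the narrowest interval of the group. Its log2 fold change was 0.13 (standard error 0.24, 95% interval -0.48 to 0.75, adjusted limma p-value of 0.923). The mean delta CT of miR-133a was -0.069 ± 0.212 (SD, n = 3) in EC-Dicerflox and 0.0622 ± 0.104 (SD, n = 3) in EC-DicerWT mice (exact permutation test, two-sided p = 0.5). With snoRNA202 as the only control RNA the sign turned, to -0.03. The estimate was 0.014 without EC-Dicerflox replicate 2 and 0.22 without EC-Dicerflox replicate 1.

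The log2 fold change of miR-133b was 0.31 (standard error 0.29, 95% interval -0.43 to 1.05, adjusted limma p-value of 0.923). The mean delta CT of miR-133b was 3.52 ± 0.395 (SD, n = 3) in EC-Dicerflox and 3.83 ± 0.0394 (SD, n = 3) in EC-DicerWT mice (exact permutation test, two-sided p = 0.4). It was 0.12 without EC-Dicerflox replicate 3, the sample with the highest control CT values, and 0.51 without EC-Dicerflox replicate 1.

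For miR-208, the fitted log2 fold change of 2.02 (standard error 2.46, adjusted limma p-value of 0.923) depended on the value given to the wells without a signal. It was 0.35 when CT values above 35 were set to 35, and it moved between 0.70 and 4.26 when each sample was left out in turn, with the highest value without EC-DicerWT replicate 2. It is no estimate of a fold difference, since 3 of its 6 values are the limit itself.

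The choice of control RNA moved all miRNAs together. For the 350 miRNAs seen in all samples, the log2 fold change had a median of 0.10 with U6 and snoRNA135, 0.19 with U6 alone and -0.058 with snoRNA202 alone. Relative to this median, which is the same comparison under any control RNA, miR-1 was at 0.33, miR-133a at 0.028 and miR-133b at 0.21. A lower log2 fold change was found for 81.1%, 52% and 72.6% of the miRNAs, respectively, so that miR-133a lay in the middle of all miRNAs.

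**Figure D3:**
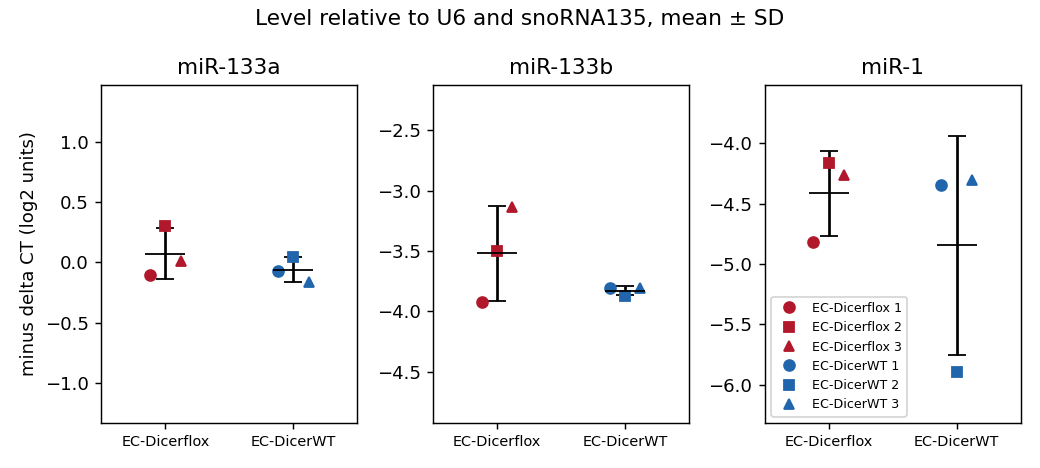
Minus delta CT in log2 units (y axis; a higher value means more RNA relative to U6 and snoRNA135) of miR-133a, miR-133b and miR-1 in the 3 EC-Dicerflox (red) and 3 EC-DicerWT (blue) aortas, with marker shape giving the replicate number, horizontal bars the mean and error bars the SD. All panels span the same number of log2 units; the groups overlap in each, and EC-DicerWT replicate 2 is the lowest point for miR-1.

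Over the 350 miRNAs seen in all samples, deviations from the group means correlated at 0.150, 0.224 and 0.431 between samples of the same number 1, 2 and 3. Some samples of different numbers correlated as well, EC-Dicerflox replicate 1 with EC-DicerWT replicate 2 at 0.285 and EC-Dicerflox replicate 2 with EC-DicerWT replicate 1 at 0.117. For replicate numbers 1, 2 and 3, the differences in minus delta CT (EC-Dicerflox less EC-DicerWT) were -0.47, 1.73 and 0.041 for miR-1. They were -0.036, 0.26 and 0.17 for miR-133a and -0.12, 0.37 and 0.67 for miR-133b. Each of the 3 miRNAs was higher in EC-Dicerflox mice for 2 of 3 replicate numbers and lower for replicates 1. Neither labels nor methods link samples of the same number, so these counts are no measure of agreement between mice.

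**Figure D4:**
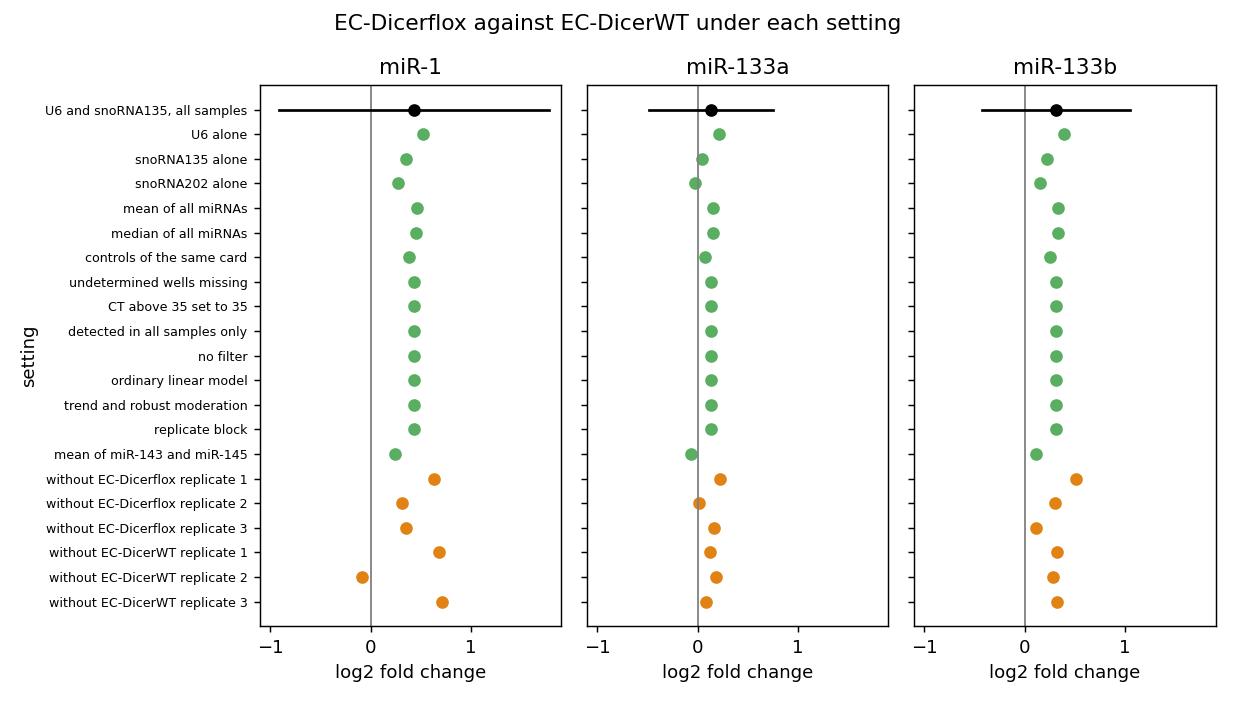
Log2 fold change of EC-Dicerflox against EC-DicerWT aortas (x axis) for miR-1, miR-133a and miR-133b under each setting (y axis), with the value from U6 and snoRNA135 in black with its 95% interval, other settings in green and fits without 1 sample in orange. The points of miR-133a cross 0 with snoRNA202 alone and with miR-143 and miR-145 as the reference, and that of miR-1 only without EC-DicerWT replicate 2.

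Differences between members within a sample do not depend on the control RNA and were compared for miRNAs that share a primary transcript or nearly all of their sequence. The gap between miR-133b and miR-133a was nearly constant, with 3.82, 3.81 and 3.14 cycles in EC-Dicerflox and 3.73, 3.92 and 3.65 cycles in EC-DicerWT replicates 1, 2 and 3. EC-Dicerflox replicate 3 was the lowest, and the other 5 samples lay between 3.65 and 3.92 cycles. Over the 6 samples, the gap had an SD of 0.277 cycles. Of the 26106 pairs among the 229 assays of the same card with a signal in all samples, 8.07% had a smaller SD of their CT difference, and the median SD was 0.716. Whether the miR-133b assay also reads miR-133a, which had the lower CT in every sample, was not tested.

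The gap between miR-1 and miR-133a, which come from the same primary transcripts, was wider, and it varied more through EC-DicerWT replicate 2. It was 4.71, 4.47 and 4.27 cycles in EC-Dicerflox and 4.28, 5.94 and 4.14 cycles in EC-DicerWT replicates 1, 2 and 3. EC-DicerWT replicate 2 stood above all other samples, which lay between 4.14 and 4.71 cycles. Its gap of miR-133b to miR-133a was also the highest, at 3.92 cycles next to 3.82 in EC-Dicerflox replicate 1. With an SD of 0.669 cycles, the gap was about as variable as that of other assays, of which 46.2% of pairs had a smaller SD.

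The gaps were also compared between the groups of mice. The gap of miR-1 to miR-133a was 4.48 ± 0.22 cycles (SD, n = 3) in EC-Dicerflox and 4.78 ± 1.001 cycles (SD, n = 3) in EC-DicerWT mice (exact permutation test, two-sided p = 0.9, adjusted p = 0.9 over both gaps). The gap of miR-133b to miR-133a was 3.59 ± 0.385 and 3.77 ± 0.14 cycles (SD, n = 3), respectively (exact permutation test, two-sided p = 0.7, adjusted p = 0.9). The direction of both differences rested on 1 sample each. That of the miR-1 gap turned from -0.302 to 0.27 cycles without EC-DicerWT replicate 2. That of the miR-133b gap turned from -0.178 to 0.044 cycles without EC-Dicerflox replicate 3. The gap of miR-206 to miR-133b was not analysed here.

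**Figure D5:**
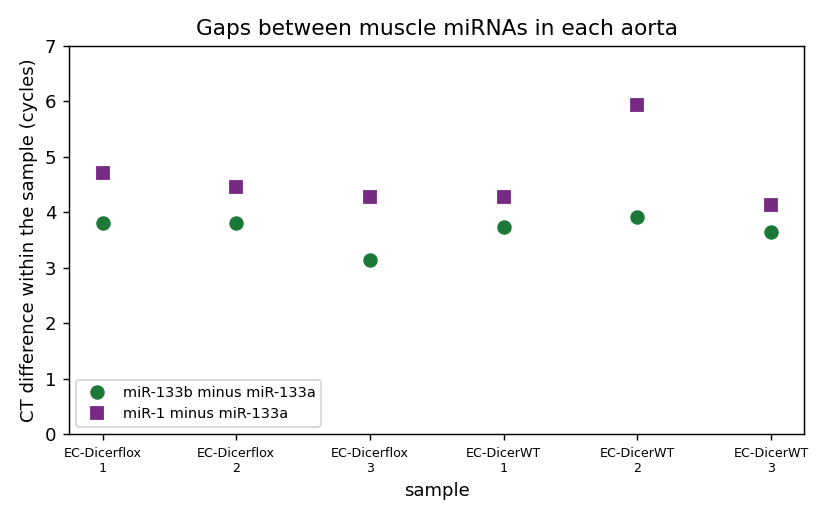
CT difference within each aorta (y axis, cycles) of miR-133b minus miR-133a (green circles) and miR-1 minus miR-133a (purple squares) for the 6 samples (x axis). The green points lie between 3.14 and 3.92, and the purple points between 4.14 and 4.71 except for EC-DicerWT replicate 2 at 5.94.

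Among the 3 members detected in every aorta, no pair passed an adjusted permutation p of 0.05 for varying together. Over the 6 samples, minus delta CT of miR-133a and miR-133b correlated with r = 0.42 (exact permutation p = 0.401) and rho = 0.43 (exact permutation p = 0.419), with adjusted values of 0.602 and 0.629 over the 3 pairs of members. Without the 2 samples farthest from the median of miR-133a, r was 0.39. Relative to the mean of all miRNAs, r was 0.83, and with U6 alone 0.74. MiR-1 and miR-133b correlated with r = 0.50 (exact permutation p = 0.25, adjusted 0.602) and rho = 0.83 (exact permutation p = 0.0583, adjusted 0.175), and r was 0.49 without the 2 farthest samples. MiR-1 and miR-133a, which share primary transcripts, gave r = 0.064 (exact permutation p = 0.838, adjusted 0.838) and rho = 0.26 (exact permutation p = 0.658, adjusted 0.658). Without EC-Dicerflox replicate 1 and EC-DicerWT replicate 2, r of this pair was 0.91 over the 4 other samples, too few to read a relation from. With U6 alone, r over the 6 samples was 0.35, and relative to the mean of all miRNAs 0.11.

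Among 347 other miRNAs with a signal in all samples, those most like the mean of the 3 detected members over the 6 samples were miR-2138 (r = 0.99), let-7g (r = 0.95), let-7e (r = 0.94), miR-200b (r = 0.93) and let-7a (r = 0.93). All values share the control RNAs, the number of samples is small, and 2.88% of the 347 had r above 0.9. MiR-1, with the largest SD of the 3, weighs most in this mean. The miRNAs let-7g, let-7e and let-7a belong to a widely expressed family, and none of the 5 is on the muscle lists used here.

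Of the 5 other miRNAs linked to muscle considered here, the table held miR-486, which arises from the gene for ankyrin 1 and is also abundant in erythroid cells, and miR-181a, which is known from muscle differentiation. MiR-486 had CT values of 20.6 to 23.3 with an estimated log2 fold change of -0.22 (standard error 0.43). MiR-181a had CT values of 22.01 to 24.4 with an estimate of 0.11 (standard error 0.39). The adjusted limma p-values were 0.923 and 0.973. The smooth muscle miRNAs miR-143 and miR-145 had log2 fold changes of 0.14 (standard error 0.23) and 0.25 (standard error 0.49), each with an adjusted limma p-value of 0.923. The CT of miR-145 stayed within 0.265 cycles over the 6 samples while that of miR-143 ranged over 1.26 and that of the control RNAs over 1.52. The delta CT of miR-145 ranged over 1.497 cycles, so that its log2 fold change mostly mirrors the control RNAs. In these lists, 0 of 2 other muscle-linked and 0 of 2 smooth muscle miRNAs passed an adjusted limma p-value of 0.05, as did 0% of all miRNAs tested. An unadjusted p-value under 0.05 was seen for 0 of these 4, against 3.04% of all miRNAs tested.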

How the data were processed

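Total RNA of whole aortas was reverse-transcribed and pre-amplified (Megaplex rodent pools) and measured on TaqMan Array MicroRNA Cards, per the study's methods. The authors deposited raw CT values, a log2-like scale without normalization and with 40 for wells without a signal; how the threshold was set is not given in the sources used here. The 6 columns were assigned by name, and 0 sample columns were left unused. Delta CT and limma 3.58.1 (lmFit and eBayes, R 4.3.3; checked on simulated data) were used with Benjamini-Hochberg adjustment over the 461 mouse miRNA assays that gave a signal (CT under 40) in 1 or more samples. Intervals are 95% intervals from limma's moderated spread. Single values were compared by exact permutation (20 arrangements). The number of arrays, 3 per group, limits the precision. All members in the table were named, with the 5 most similar miRNAs and marker lists for muscle and other cells. The members, lists and tests were chosen with earlier results of these data known. Cards were told apart by the style of the assay numbers.

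The main fits and the permutation tests treated the samples as unpaired. Same-numbered samples were set against each other only in the differences by replicate number and in the alternative fit with a replicate block. For each number, the correlation of their deviations from the group means was over 0.1. Some samples of different numbers correlated as well, so that the numbers give no clear ground for pairing. The methods state that littermates were used, but which samples came from 1 litter is given in neither labels nor methods. No pair of samples was identical. The alternatives were other control RNAs, all miRNAs (their mean or median), miR-143 and miR-145 (added after the data were seen), same-card controls, missing or capped high CT values (at 35), other filters, other moderation, the replicate block and leaving out each sample. The sequences of miR-1 and miR-133a are not reported here.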

Additional observations from a re-analysis of the deposited data

How the results depend on the processing

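The adjusted p-values of miR-1, miR-133a, miR-133b and miR-208 stayed above 0.05 in every alternative that gave a value. MiR-208 gave none with wells without a signal left missing or with only miRNAs detected in all samples. The log2 fold change of miR-133b stayed above 0, between 0.12 and 0.39 over 14 alternatives and between 0.12 and 0.51 when each sample was left out. The sign of miR-133a turned with snoRNA202 alone (-0.03) and with miR-143 and miR-145 as the reference (-0.063), which follows from the shift of all miRNAs with the reference; leaving out samples gave 0.014 to 0.22. For miR-1, leaving out samples gave -0.089 (without EC-DicerWT replicate 2) to 0.71, and for miR-208, which had wells at the limit, 0.70 to 4.26. The group difference in the gap of miR-1 to miR-133a was -0.302 cycles, and it was -0.62 to 0.27 when samples were left out (0.27 without EC-DicerWT replicate 2). That in the gap of miR-133b to miR-133a was -0.178, and it was -0.29 to 0.044 (0.044 without EC-Dicerflox replicate 3). The SD of miR-133a was 0.409 with U6 alone.

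In the fit with a replicate block, the log2 fold changes of miR-1, miR-133a, miR-133b and miR-208 were 0.43, 0.13, 0.31 and 2.02 with unadjusted limma p-values of 0.495, 0.618, 0.36 and 0.397, and the block changed no call. The number of miRNAs with an adjusted p-value under 0.05 was 0 in the 14 alternatives and 0 to 2 when samples were left out (2 without EC-Dicerflox replicate 1 and 1 without EC-Dicerflox replicate 3), none of them a muscle miRNA of this group. The number of miRNAs with an unadjusted p-value under 0.05, out of those each alternative tested, ranged over the alternatives from 6 to 14 among the lower (14 with snoRNA202 alone) and from 3 to 14 among the higher (3 with U6 alone and with miR-143 and miR-145, 14 with the ordinary linear model). Wells at the limit carry no order, and 3 aortas per group set the width of the intervals.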
